A study of Homo sapiens with 6 samples.

Results

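The insulin-like growth factor system was followed through 10 genes chosen by name from a deposited table of 18268 gene rows: the ligand gene IGF2, the receptor genes IGF1R, INSR and IGF2R, the adaptor genes IRS1 and IRS2, and the binding protein genes IGFBP2, IGFBP3, IGFBP4 and IGFBP6. Each of the 10 matched a single row. IGF2 shares its row with INS, the insulin gene, and with INS-IGF2, a readthrough of both, so its values cannot be assigned to IGF2 alone. RNA came from MIA PaCa-2, an established human pancreatic carcinoma line that the labels call epithelial. Of the 6 libraries, 3 came from cells with the empty pCDH vector and 3 from cells made to overexpress LINC00901, a long noncoding RNA. Cells of both groups grew in DMEM with fetal bovine and horse serum. The labels do not say whether the replicates were separate cultures, or whether each line was a clone or a pool, and p-values therefore reflect only library-to-library spread, which may be technical.

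IGF2 is a secreted growth factor encoded by an imprinted gene that is normally read from the paternal copy. It signals through the tyrosine kinase receptors encoded by IGF1R and INSR, whereas the IGF2R product, the cation-independent mannose 6-phosphate receptor, takes IGF2 up for degradation. Binding proteins hold the ligand outside the cell, and IGFBP6 is known for preferring IGF2 over IGF1. Activated receptors phosphorylate the IRS adaptors, which recruit phosphoinositide 3-kinase (PI3K) and lead to AKT, mTOR and the inhibition of FOXO transcription factors. FOXO factors in turn activate IRS2 and INSR in several tissues.

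Levels are in FPKM, fragments scaled to gene length and to the library's mapped fragments, as the authors deposited them. Their depth is unknown. The groups differed as a whole. Summed FPKM was 87162 to 88738 in the vector libraries and 127768 to 128538 in the overexpression libraries. The median log2 difference of the 9694 rows tested was 0.27 on the log2(FPKM + 0.5) scale. Log2 differences below are therefore overexpression minus vector relative to that median difference (called the median gene), unless called unscaled. Adjusted p-values come from the limma fit without that shift, over all 9694 rows. Median centring is a different scale, which subtracts each library's own median and left a median difference of 0.06. No row names LINC00901, so its overexpression was not checked. Of the line's markers, VIM (vimentin) lay at 198 to 250 FPKM in the vector and 543 to 634 in the overexpression libraries and was called higher (adjusted p = 0.000195). KRT18 (keratin 18) lay at 90.9 to 105 against 62.5 to 86.9 FPKM and KRT8, in the joined row KRT8;KRT78, at 19.7 to 27.8 against 14.8 to 16.6 FPKM, both called lower (adjusted p = 0.0219 and 0.00961). The epithelial markers EPCAM and CDH1 did not exceed 0.14 FPKM in any library. KRT19, another keratin gene, lay at 2.22 to 5.92 FPKM in the vector and 22.89 to 25.02 in the overexpression libraries and was called higher (adjusted p = 0.000654). The part of these markers in the results was not tested. Of 9 rows that name a single marker of leukocytes, endothelium, fibroblasts or endocrine cells, 7 were under 0.2 FPKM in every library. The 9 summed to 18.1 to 19.5 FPKM in the vector and 12.0 to 17.9 in the overexpression libraries, mostly from the collagen gene COL1A2. COL1A2 was called lower (limma adjusted p = 0.0339). COL1A1, at 0.36 to 0.92 against 1.50 to 1.99 FPKM, was called higher (limma adjusted p = 0.00913). The part of these 9 rows in the results below was not tested. In bulk RNA, a change in the share of expressing cells and a change in RNA per cell cannot be told apart.

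Promoter windows from RefSeq (build GRCh38.p14, 250 bases before to 50 after a gene start) matched 9 of the 10 genes by symbol, in 11 windows; IGF2 was not matched. The authors' build was hg19, so these coordinates belong to the RefSeq table only. The windows of IGFBP6 (chr12:53097417-53097716, + strand) and IRS2 (chr13:109786534-109786833, - strand) are shown because these genes were higher in the overexpression libraries, and that of IGF1R (chr15:98648289-98648588, + strand) because it was lower. Each is written 5′ to 3′ along its gene, with matches on either strand to any of 4 motifs in capitals: GTAAACA (FOXO), TGANTCA (AP-1), GCGNGGGCG (EGR1) and GGGCGG (the GC box, which can overlap the EGR1 motif).
IGFBP6: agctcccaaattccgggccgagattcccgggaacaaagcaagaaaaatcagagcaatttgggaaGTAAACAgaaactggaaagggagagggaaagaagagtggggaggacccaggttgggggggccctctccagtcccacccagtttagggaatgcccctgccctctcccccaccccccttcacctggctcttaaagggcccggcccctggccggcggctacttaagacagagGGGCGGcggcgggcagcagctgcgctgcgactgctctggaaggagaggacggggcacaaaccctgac
IRS2: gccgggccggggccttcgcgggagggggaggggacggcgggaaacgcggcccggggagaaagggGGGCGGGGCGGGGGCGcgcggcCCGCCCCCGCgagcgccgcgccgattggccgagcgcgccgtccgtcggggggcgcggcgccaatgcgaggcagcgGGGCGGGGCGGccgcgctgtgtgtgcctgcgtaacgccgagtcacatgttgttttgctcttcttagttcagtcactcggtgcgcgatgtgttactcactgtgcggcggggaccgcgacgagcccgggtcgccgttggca
IGF1R: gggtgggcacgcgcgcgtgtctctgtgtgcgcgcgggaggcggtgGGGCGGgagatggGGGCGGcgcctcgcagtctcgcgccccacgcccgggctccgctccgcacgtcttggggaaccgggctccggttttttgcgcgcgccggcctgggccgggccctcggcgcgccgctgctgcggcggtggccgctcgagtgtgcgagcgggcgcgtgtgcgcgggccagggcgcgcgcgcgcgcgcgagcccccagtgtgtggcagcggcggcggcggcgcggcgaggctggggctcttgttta
The IGFBP6 window held 1 FOXO match and 1 GC box. It was the only one of the 11 windows with a FOXO match, a motif found in 3.42% of all 35116 windows of this length. The IRS2 window held 2 EGR1 matches, found in 9.43% of all windows, and 5 GC boxes, found in 45.0%. The IGF1R window held 2 GC boxes and matches to none of the other 3 motifs. None of the windows held an AP-1 match (7.71% of all windows). These are letter matches only, and no binding was measured.

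Of the 10 genes, 9 reached the mean of 1 FPKM needed for testing. IGF2, IGFBP6 and IRS2 were called higher in the overexpression libraries, against 37.4% of all tested rows, and IGF1R was called lower, against 11.9% (49.2% in either direction). The remaining 5 (IGF2R, INSR, IRS1, IGFBP3 and IGFBP4) did not pass an adjusted p of 0.05. The groups did not overlap for 7 of the 9, 5 with higher and 2 with lower values, where 60.6% of all tested rows did not overlap (44.9% higher and 15.6% lower). After median centring IGF2R joined IGF1R as lower, where 43.3% of all rows were called, and with the length and GC trend removed 38.9% were. The median unscaled log2 difference of the 9 was 0.28, close to the 0.27 of all tested rows. The 9 genes did not move in a single direction.

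**Figure D1:**
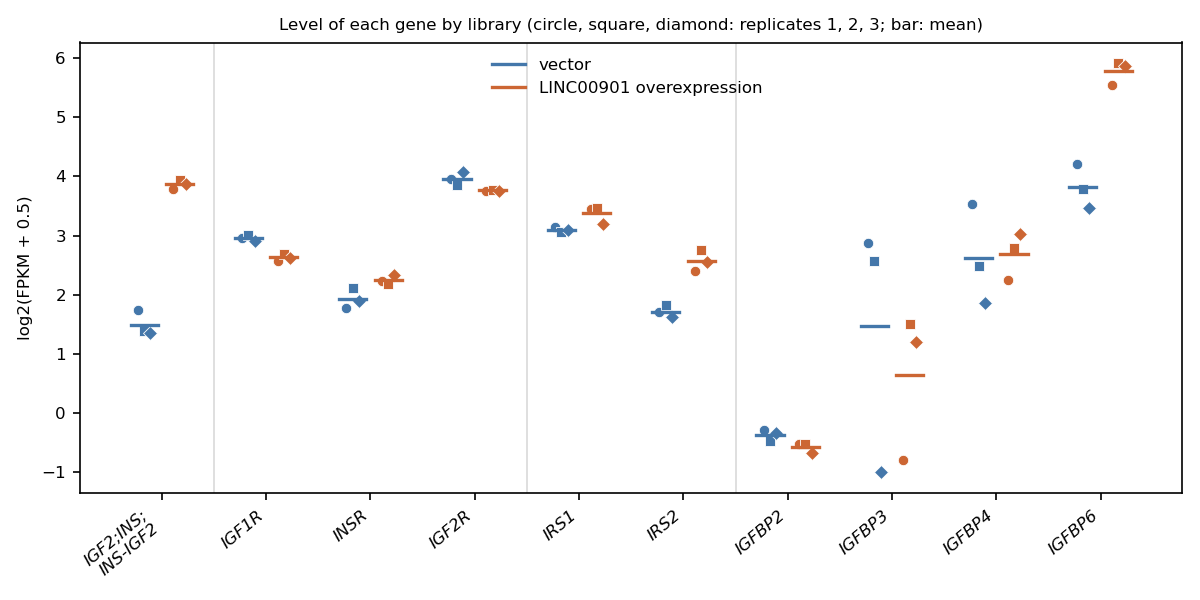
Level of each of the 10 genes as log2(FPKM + 0.5), with 1 point per library, vector in blue and LINC00901 overexpression in orange, and a bar at each group's mean. The joined IGF2 row and IGFBP6 show the widest gap between groups, whereas IGFBP3 and IGFBP4 spread more within a group than between groups.

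The ligand row showed the largest difference of the 9. IGF2;INS;INS-IGF2 stood at 2.84, 2.11 and 2.06 FPKM with the vector and at 13.28, 14.82 and 14.21 with overexpression. Every overexpression library was above every vector library, and the lowest of them was more than 4 times the highest vector value. The mean rose from 2.34 ± 0.437 to 14.1 ± 0.776 FPKM (SD, n = 3), a log2 difference of 2.11 (95% interval 1.80 to 2.42, limma adjusted p = 8.46e-05), or 4.31-fold relative to the median gene. This was the 35th largest rise among the 9694 rows. Its position among the tested rows of its own library, which library-wide scaling does not alter, moved from the 20.2nd to 31.3rd percentile in the vector libraries to the 80.2nd to 83.0th in the overexpression libraries. With a trend on length and GC content removed, the log2 difference was 2.06 (adjusted p = 0.000316). IGF1, the other ligand gene, was listed between 0 and 0.02 FPKM in all 6 libraries.

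The RNA of genes that encode proteins named for binding IGF2 mRNA was measured in the same libraries. IGF2BP2 rose from 2.30 to 7.33 FPKM as group means, a log2 difference of 1.22 (adjusted p = 0.000168). IGF2BP3 was not called (adjusted p = 0.778), with an unscaled difference of 0.06 that became -0.15 after median centring. IGF2BP1, below the filter, lay at 0.37 to 0.50 FPKM in the vector and 0.14 to 0.17 in the overexpression libraries. In limma without the filter it was called lower (unscaled log2 difference -0.51, adjusted p = 0.0058). In the list of genes that act on IGF2 RNA or on its locus, IGF2BP2 was the only one of 3 tested rows called in the unscaled fit. Over all tested rows, 49.2% were called in that fit. CTCF, which insulates the IGF2 locus, was not called (unscaled log2 difference -0.23, adjusted p = 0.241). PLAG1, PLAGL1, HMGA2 and ZFP57 stayed at or under 0.32 FPKM, and no row names H19.

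Among all other tested rows, JUN, TMEM268 and EHD4 followed the IGF2 row most closely within the groups. Their Pearson correlations over the 6 libraries, after each group's mean was removed, were 0.995, 0.994 and 0.992. JUN encodes an AP-1 subunit and stood at 3.30, 1.67 and 1.65 FPKM with the vector and at 9.00, 12.29 and 10.94 with overexpression, so that vector replicate 1 was the highest of its group for both JUN and IGF2 and overexpression replicate 1 the lowest. Only 4 degrees of freedom remain after removing the group means, and 95 of 9693 rows exceeded 0.95, so such values describe these libraries and carry no p-value.

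Receptor genes differed by far less than the ligand row. IGF1R, the main signalling receptor for IGF1 and IGF2, stood at 7.32, 7.59 and 7.03 FPKM with the vector and at 5.47, 5.96 and 5.68 with overexpression. All 3 overexpression values were below the vector values. The log2 difference was -0.60 (95% interval -0.81 to -0.38), unscaled -0.33, with an adjusted p of 0.0219 in limma. Leaving out vector replicate 2, overexpression replicate 1 or overexpression replicate 3 ended that call (adjusted p = 0.0522, 0.0617 and 0.0716).

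IGF2R, the clearance receptor, had the highest mean of the 10 genes in the vector group, at 15.03, 13.92 and 16.37 FPKM, although IGFBP6 was higher in vector replicate 1. The overexpression libraries lay close together at 13.04, 13.20 and 13.04 FPKM, just below the lowest vector value. In the unscaled fit IGF2R was not called (log2 difference -0.20, adjusted p = 0.108). It was called lower with each library centred on its median (-0.40, adjusted p = 0.00891), where 19.2% of all tested rows were, but not with the length and GC trend removed (-0.14, adjusted p = 0.209).

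INSR, the insulin receptor, stood at 2.93, 3.85 and 3.22 FPKM against 4.20, 4.02 and 4.52 in the overexpression libraries. The groups did not overlap, although 4.02 and 3.85 lay close. INSR was not called (unscaled log2 difference 0.31, adjusted p = 0.0771), and relative to the median gene the interval of its difference was -0.25 to 0.35. Without vector replicate 2 it was called higher (unscaled 0.41, adjusted p = 0.0346).

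The adaptors differed from each other. IRS2, a substrate of both receptors and a FOXO-regulated gene, stood at 2.76, 3.04 and 2.57 FPKM with the vector and at 4.78, 6.26 and 5.35 with overexpression. The groups did not overlap. The log2 difference was 0.59 (95% interval 0.28 to 0.90, limma adjusted p = 0.00218), or 1.50-fold relative to the median gene.

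IRS1, the paralogous adaptor, stood at 8.39, 7.80 and 8.03 FPKM against 10.47, 10.58 and 8.69. The lowest overexpression value was close to the highest vector value. IRS1 was not called (unscaled log2 difference 0.28, adjusted p = 0.0685), and relative to the median gene its difference of 0.01 had an interval of -0.24 to 0.26. It was called higher without overexpression replicate 3 (unscaled 0.36, adjusted p = 0.0437), and quantile normalization turned its sign (-0.02).

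**Figure D2:**
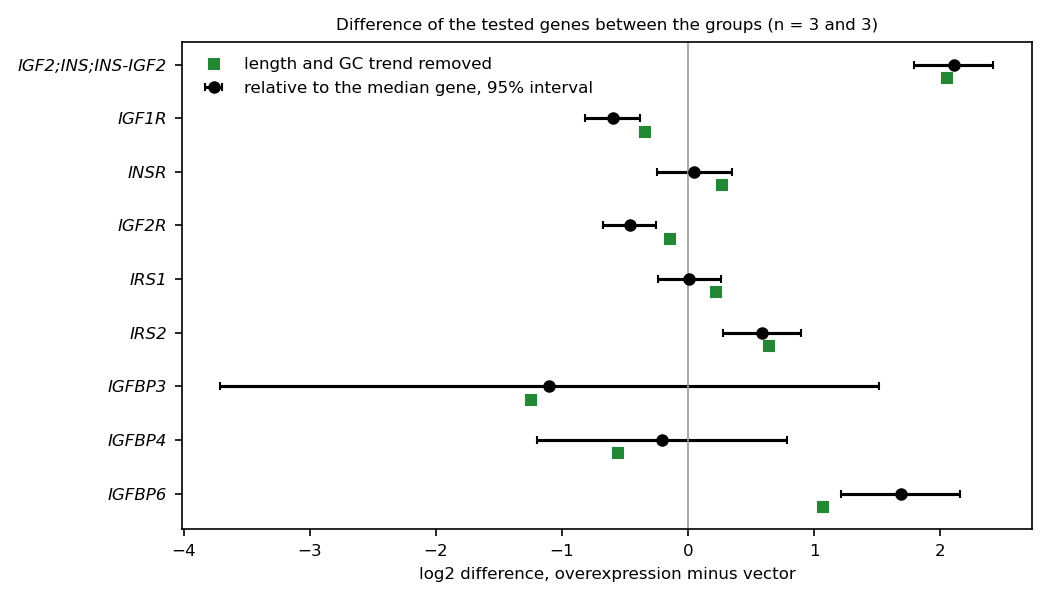
Log2 difference (overexpression minus vector, n = 3 and 3) of the 9 tested genes relative to the median gene, with 95% intervals (black), and after removal of a length and GC trend (green squares). Of the genes called in the unscaled fit, IGF2 (2.11), IGFBP6 (1.69) and IRS2 (0.59) lie right of 0 under both scalings and IGF1R (-0.60) left. Of those not called there, INSR and IRS1 lie to the right under both scalings and IGF2R, IGFBP3 and IGFBP4 to the left. The interval of IGF2R (-0.67 to -0.25) leaves out 0, while that of IGFBP3 runs from -3.71 to 1.51.

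Of the 3 tested binding protein genes, IGFBP6 was called and IGFBP3 and IGFBP4 were not. IGFBP6 stood at 18.06, 13.35 and 10.56 FPKM with the vector and at 46.22, 59.79 and 57.91 with overexpression. The lowest overexpression value was more than 2 times the highest vector value. The mean rose from 14.0 ± 3.79 to 54.6 ± 7.35 FPKM (SD, n = 3), a log2 difference of 1.69 (95% interval 1.22 to 2.16, limma adjusted p = 0.000471). It was the 80th largest rise of the 9694 rows. With the length and GC trend removed the difference was smaller, at 1.07 (adjusted p = 0.00591).

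IGFBP3, which carries most circulating IGF and is also made by many tumour cells, had the largest standard error of the 9 tested genes. Its vector values were 6.80, 5.42 and 0.00 FPKM, and its overexpression values 0.08, 2.35 and 1.81 FPKM. The groups overlapped, because vector replicate 3 lay below every other library. Whether this 0 is a failed estimate or an absence of the RNA was not tested. The unscaled log2 difference of -0.83 was not called (limma adjusted p = 0.555). Leaving out vector replicate 3 gave -2.07 (adjusted p = 0.0533). Leaving out vector replicate 1 or 2 gave -0.14 or -0.29, and leaving out overexpression replicate 1 gave -0.12.

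IGFBP4, an inhibitory binding protein that the protease PAPPA cleaves, stood at 11.03, 5.13 and 3.15 FPKM against 4.26, 6.42 and 7.62. The groups overlapped fully. The unscaled log2 difference was 0.06 (adjusted p = 0.919), with a sign that turned under median centring (-0.15) and 5 other settings. IGFBP2 was below the filter, at 0.32, 0.22 and 0.29 FPKM with the vector and 0.20, 0.20 and 0.13 with overexpression. Vector replicate 1 was the highest of its group for each of the 4 binding protein genes. In the overexpression libraries replicate 1 was the lowest for IGFBP3, IGFBP4 and IGFBP6.

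Summed over the 4 binding protein genes, the level was 36.2, 24.1 and 14.0 FPKM in the vector libraries and 50.8, 68.8 and 67.5 in the overexpression libraries. IGFBP6 made up 49.9%, 55.3% and 75.4% of that sum in the vector libraries and 91.1%, 87.0% and 85.8% in the overexpression libraries. The sum and the share of IGFBP6 were thus higher in every overexpression library than in any vector library. The vector replicate 3 values include the IGFBP3 value of 0. Without IGFBP3, the share of IGFBP6 was 61.4%, 71.4% and 75.4% with the vector and 91.2%, 90.0% and 88.2% with overexpression, and the groups still did not overlap.

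The order of levels among the 10 genes changed accordingly. In the vector libraries IGF2R and IGFBP6 led, with overlapping values, followed by IRS1 and IGF1R. The joined IGF2 row was ninth of 10, and its values overlapped those of IRS2 just above it. In the overexpression libraries IGFBP6 led, followed by the IGF2 row, IGF2R and IRS1, and none of these neighbours overlapped. FPKM is a level per length, but the length used for the joined row is not given in the sources used here.

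Ratios between these genes within a library are free of any scaling that moves all genes of a library alike. Of these, 6 were computed, chosen after the values had been seen. The ratios keep any trend on gene length and GC content, which was removed only for single genes. With that trend removed, the log2 difference of the IGF2 row was 2.06, against 2.11 relative to the median gene. For IGF2R it was -0.14 (against -0.46), for IGF1R -0.345 (against -0.60) and for IGFBP6 1.07 (against 1.69). The ratio of the IGF2 row to IGF2R was 0.189, 0.152 and 0.126 in the vector libraries and 1.02, 1.12 and 1.09 in the overexpression libraries, 7.02-fold higher. Its ratio to IGF1R was 7.82-fold higher, at 0.320 ± 0.0596 against 2.47 ± 0.0391 (SD, n = 3). The IGF2 row thus went from well below the level of IGF2R to slightly above it.

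IGFBP6 rose less than the IGF2 row, with a ratio of 5.94 ± 0.703 against 3.86 ± 0.332 (SD, n = 3), 1.53-fold lower. The ratio of IGF1R to INSR, the receptors that can form hybrids with each other, was 2.50, 1.97 and 2.18 against 1.30, 1.48 and 1.26, 1.64-fold lower. IRS2 to IRS1 was 0.329, 0.390 and 0.320 against 0.457, 0.592 and 0.616, 1.59-fold higher. In these 5 ratios the groups did not overlap, each with a two-sided exact permutation p of 0.1, the smallest that 3 against 3 libraries can give (0.12 after Benjamini-Hochberg adjustment over 6). IGF1R to IGF2R overlapped, at 0.487 ± 0.0579 against 0.436 ± 0.0160 (SD, n = 3, exact permutation p = 0.3).

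**Figure D3:**
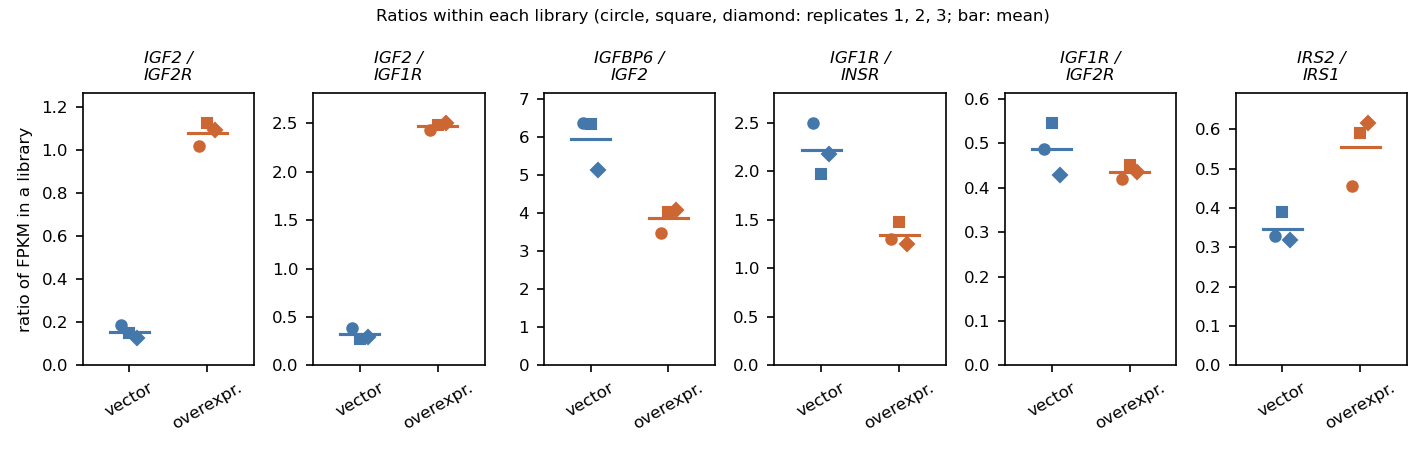
Ratio of FPKM values of 6 gene pairs within each library (y axis from 0), with 1 point per library and a bar at the group mean, vector in blue and overexpression in orange; IGF2 stands for its joined row. The groups are apart in 5 panels, most widely for IGF2 to IGF2R and IGF2 to IGF1R, and overlap for IGF1R to IGF2R.

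Other genes of the pathway were taken from 6 lists grouped by role. Of 85 rows, 56 were tested, and 31 were higher and 3 lower in the unscaled fit, or 55.4% and 5.36%, against 37.4% and 11.9% of all tested rows. Their median unscaled log2 difference was 0.41, against 0.27. After median centring 19 were higher and 7 lower, where 24.0% and 19.2% of all rows were, and with the length and GC trend removed 19 and 4, where 19.3% and 19.6% of all rows were.

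Of the ligands, binding proteins and proteases outside the 10 genes, STC1 alone of 10 rows was high enough to test. It passed the filter only through the overexpression libraries (mean 2.41 FPKM, against 0.36 with the vector). STC1, stanniocalcin, an inhibitor of the PAPPA proteases, stood at 0.35, 0.51 and 0.22 FPKM against 2.11, 2.89 and 2.22, a log2 difference of 1.50 (adjusted p = 0.000560). With a pseudocount of 0.1 the unscaled difference of 1.76 became 2.48. Among the rows below the filter, PAPPA lay at 0.27 to 0.70 FPKM in the vector and 0.01 to 0.22 in the overexpression libraries. STC2 and IGFBP7 also had non-overlapping lower values (STC2 at least 0.35 against at most 0.13 FPKM, IGFBP7 at least 0.75 against at most 0.40). In limma without the filter, both were called lower (unscaled log2 difference -0.76, adjusted p = 0.00457, and -1.10, 0.0115). PAPPA was not called in that fit (-0.68, adjusted p = 0.0532). The joined row SPSB3;IGFALS was apart in the other direction, at 0.13, 0.04 and 0.04 FPKM against 0.82, 0.71 and 1.23 (limma without the filter, log2 difference 1.30 unscaled, adjusted p = 0.00165). IGFBP1 and IGFBP5 stayed at or under 0.48 FPKM.

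Of 13 tested adaptors and inhibitors near the receptors, 5 were higher and 1 lower in the unscaled fit (all tested rows: 37.4% and 11.9%). After median centring 3 and 1 were (24.0% and 19.2% of all rows), and with the length and GC trend removed 1 and 1 (19.3% and 19.6%). SOCS3, which targets activated IRS proteins and cytokine receptors, passed the filter only through the overexpression libraries (mean 2.01 FPKM, against 0.72 with the vector). It had a log2 difference of 0.81 (adjusted p = 0.00994). GRB2, the adaptor to RAS, stood at 0.52 (0.0112) and GRB10, an inhibitory receptor adaptor, at 0.42 (0.00849). SH2B1, an adaptor that enhances insulin receptor signalling, fell from 4.31 to 2.86 FPKM as group means, a log2 difference of -0.78 (adjusted p = 0.00738). With the length and GC trend removed, SOCS3 and GRB2 had log2 differences of 0.58 and 0.49 and were no longer called (adjusted p = 0.0855 and 0.0826). Quantile normalization gave 0.36 for GRB2 and also ended its call (0.192).

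Of 14 tested PI3K and AKT genes, 10 were higher and 2 lower in the unscaled fit, against 37.4% and 11.9% of all tested rows. After median centring 5 and 2 were (24.0% and 19.2% of all rows), and with the length and GC trend removed 8 and 2 (19.3% and 19.6%). TRIB3, a pseudokinase that binds AKT, rose from 2.77 to 8.77 FPKM as group means, a log2 difference of 1.24 (adjusted p = 0.000187). The regulatory PI3K subunits PIK3R2, in the joined row IFI30;PIK3R2, and PIK3R3, in the joined row PIK3R3;AL358075;P3R3URF, had log2 differences of 0.88 and 0.67 (adjusted p = 0.000262 and 0.000908). The 2 lower rows were PHLPP2, a phosphatase of AKT, and C19orf47;AKT2, named after their values were seen.

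Of 16 tested genes of TSC, mTOR, GSK3 and FOXO, 9 were higher and 0 lower in the unscaled limma fit (all tested rows: 37.4% and 11.9%). After median centring 5 and 3 were (24.0% and 19.2% of all rows), and with the length and GC trend removed 4 and 0 (19.3% and 19.6%). DDIT4, an inhibitor of mTOR complex 1, rose from 17.2 to 60.6 FPKM as group means (log2 difference 1.52, adjusted p = 5.96e-05). EIF4EBP1, the translation repressor that mTOR inactivates, had a log2 difference of 1.13 (adjusted p = 0.000667), but 0.45 with the length and GC trend removed. RHEB, the GTPase that activates mTOR, stood at 0.87 (0.0112), and its call was lost with that trend removed (0.69, adjusted p = 0.0798) and with quantile normalization (0.76, 0.0541).

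MLST8, a subunit of both mTOR complexes, had vector values of 1.20, 0.09 and 1.15 FPKM and overexpression values of 1.97, 3.05 and 3.28. With a vector mean of 0.81 FPKM, MLST8 passed the filter only through the overexpression libraries. Its adjusted p of 0.0286 became 0.0814 and 0.0836 without overexpression replicate 2 or 3, and its unscaled log2 difference of 1.44 became 0.94 without vector replicate 2. The call of MLST8 was also lost with a pseudocount of 0.1 (unscaled log2 difference 2.05, adjusted p = 0.0567). Median centring (1.23, 0.0526) and removal of the length and GC trend (0.78, 0.166), each on its own scale, ended the call too.

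Of 9 tested FOXO target genes, 5 were higher and 0 lower in the unscaled limma fit, against 37.4% and 11.9% of all tested rows. After median centring 4 and 1 were (24.0% and 19.2% of all rows), and with the length and GC trend removed 4 and 1 (19.3% and 19.6%). The lower row in both was PDK4 (log2 difference -0.56 and -0.48, limma adjusted p = 0.0228 and 0.0448), named after its values were seen. In the unscaled fit PDK4 was not called (-0.35, adjusted p = 0.0829). TXNIP, an inhibitor of glucose uptake that is also induced by glucose, stood at 14.23, 13.86 and 15.40 FPKM against 71.10, 89.94 and 84.88. Its log2 difference of 2.19 (adjusted p = 3.77e-05) was of the same size as that of the IGF2 row. KLF15, a transcription factor of amino acid and glucose metabolism, passed the filter only through the overexpression libraries (mean 2.32 FPKM, against 0.58 with the vector). It had a log2 difference of 1.17 (adjusted p = 0.00404). PCK2, the mitochondrial PEP carboxykinase gene, stood at 0.96 (0.00391) and CDKN1B, which encodes the cell cycle inhibitor p27, at 0.46 (0.00106). BCL6, also called higher in the unscaled limma fit (adjusted p = 0.0335), was not called after median centring (0.104). Like KLF15, BCL6 passed the filter only through the overexpression libraries (mean 1.39 FPKM, against 0.66 with the vector). The list has IRS2 and INSR outside it, as they belong to the 10 genes.

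**Figure D4:**
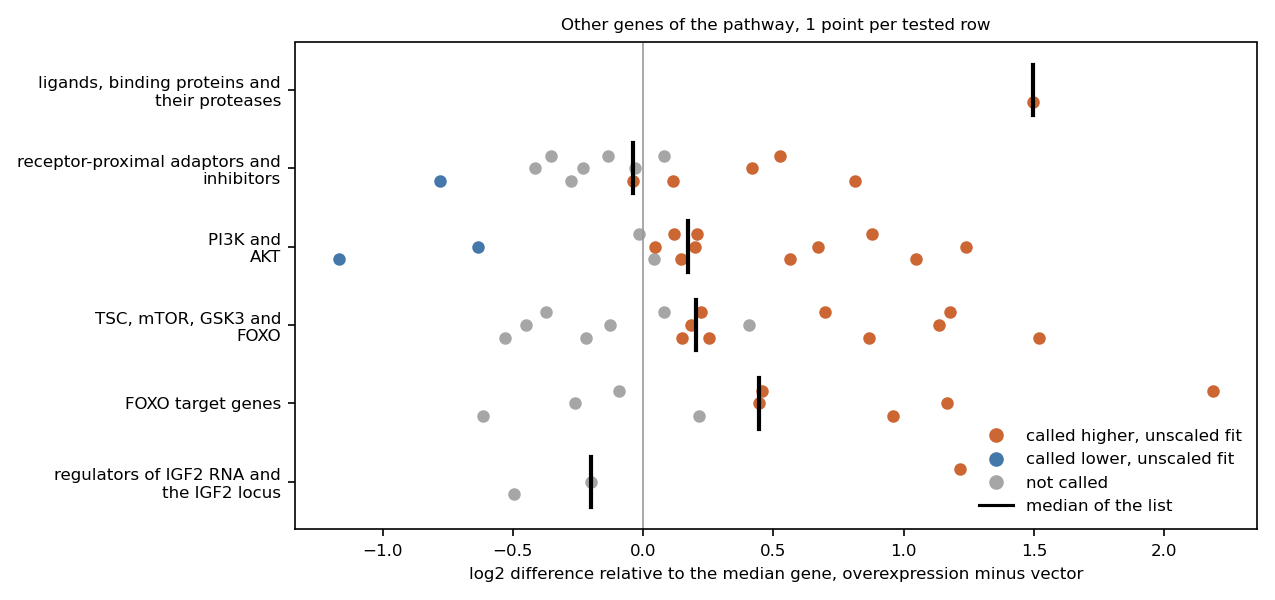
Log2 difference relative to the median gene (overexpression minus vector) of the 56 tested rows in 6 lists of the pathway, with 1 point per row coloured by its call in the unscaled fit and a black bar at each list's median. TXNIP (2.19), DDIT4 (1.52) and STC1 (1.50) lie farthest to the right.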

How the data were processed

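RNA of 6 MIA PaCa-2 libraries, 3 with the vector and 3 with LINC00901 overexpression, was grouped by the sample titles. The authors deposited FPKM values with at most 2 decimals, 1 table for all libraries. The tools named per the submitters' processing notes are HISAT2, cutadapt and FastQC, on build hg19; their versions, the annotation and the program behind the FPKM are not given there. Depth is unknown and no count model was used.

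Values were transformed to log2(FPKM + 0.5). The 9694 rows with a mean of at least 1 FPKM were fitted with limma 3.58.1 (R 4.3.3, intensity trend, no block), with Benjamini-Hochberg adjustment over all of them and a threshold of 0.05. Differences on this scale understate the change of low genes. The filter used the mean over all libraries, so a gene low in 1 group could pass through the other group alone. The fit was tested on simulated data. Named genes were the 10 members, up to 4 called and non-overlapping genes of each pathway list, and the IGF2BP genes; members and lists were chosen with earlier results of these data known. The alternatives were other pseudocounts, filters, scalings and limma settings, a replicate block, and leaving out each library. For the length and GC trend (loess, span 0.5), each row took the longest GENCODE 29 transcript of its symbols, found for 99.6% of rows. Leaving out libraries from the ratios, and IGFBP3 from the binding protein sum, was added after seeing the data. Other steps used Python 3.11.15, pandas 2.3.3, numpy 2.4.6 and matplotlib 3.10.9.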

Additional observations from a re-analysis of the deposited data

How the results depend on the processing

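IGF2, IGFBP6 and IRS2 kept their direction and their call in every alternative run (15 each, 14 for IRS2), with log2 differences of 2.06 to 2.56, 1.07 to 2.15 and 0.64 to 0.94, each on the scale of its own alternative. The lowest values came with the length and GC trend removed. IGFBP3 stayed uncalled. IRS2, INSR and IGFBP3 could not be tested at a mean of at least 5 FPKM. With libraries left out in turn, the unscaled log2 difference ranged from -0.36 to -0.31 for IGF1R, from 0.24 to 0.41 for INSR, from 0.23 to 0.36 for IRS1 and from -0.32 to 0.51 for IGFBP4. IGF2R was -0.40 with median centring and -0.60 with quantile normalization, and was called lower in both. Quantile normalization gave -0.025 for IRS1. IGFBP4 was -0.15 with median centring, -0.18 with quantile normalization and -0.56 with the length and GC trend removed. IGF2BP3 was -0.15, -0.31 and -0.051 in these 3, and ranged from -0.14 to 0.17 unscaled with libraries left out. The causes were not tested.

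Of all rows, 4773 were called, 3621 higher and 1152 lower. The counts were 2331 and 1866 with median centring, 1865 and 2024 under quantile normalization, and 1865 and 1890 after length and GC detrending. With a mean of at least 5 FPKM, which leaves fewer rows, they were 2818, 2396 and 422. For the pathway lists, 31 higher and 3 lower became 19 and 7 with median centring, 17 and 8 under quantile normalization, and 19 higher after length and GC detrending. They became 20 in all, 19 higher and 1 lower, with a mean of at least 5 FPKM, and 5 were lower with no filter. Leaving out single libraries gave 3587 to 4344 calls over all rows and 23 to 30 in the lists.

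In the sample titles, same-numbered libraries of the groups are linked only by that number. Their deviations from the group means correlated at -0.037, -0.0057 and -0.005, and none correlated best with its own number. Such correlations cannot show whether same-numbered libraries were handled together. With the replicate block, 4227 rows were called, and IGF1R, at an unchanged unscaled -0.33, had an adjusted p of 0.0588. No other gene of the 10 changed its call under the block.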
